A study of Mus musculus with 6 samples.

Results

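The genes described here build and run the contractile apparatus of skeletal muscle, and they were read in RNA from fat taken from beneath the skin of mice (subcutaneous white adipose tissue). The set holds 41 genes, taken by name from the 36144 gene rows of the deposited table, and all 41 were found there. Poly-A RNA was sequenced in 6 libraries, 3 titled Tumor and 3 titled WT, numbered as biological replicates 1 to 3 in each group. The libraries titled Tumor carry the genotype label MSRA full-body KO and those titled WT the label MSRA WT, and all 6 carry the treatment label Orthotopic transplant. The series design describes transplanting pancreatic ductal adenocarcinoma cells into hosts of both genotypes and collecting fat after 4 to 5 weeks, whereas the series title contrasts tumour-bearing mice with mice that had no tumour. The groups are therefore called Tumor and WT after the titles, and tumour and genotype cannot be told apart. Strain, age and sex of the animals are not given in the labels. The sample descriptions run from CH595 to CH597 for Tumor and from CH126 to CH134 for WT, and any batch that follows this numbering cannot be told apart from the group.

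Skeletal muscle fibres shorten when thick filaments of myosin pull on thin filaments of actin, within repeating units called sarcomeres. Calcium released from the sarcoplasmic reticulum switches the thin filament on through the troponin complex, and pumps then take the calcium back. Fibres come in slow oxidative and fast glycolytic types, which use different members of the same protein families. Mature fibres make these transcripts at very high levels, while fat cells build no sarcomeres.

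The deposited values are TPM, a scale on which each library adds up to 1000000 after division by transcript length, so levels can be compared between genes. Read totals per library are not known from TPM. Between 13077 and 14253 genes per library reached 1 TPM, and mitochondrial genome transcripts took 8.52% to 18.6% of the TPM. Msra, the gene named in the genotype labels, stood at 52.9, 40.0 and 26.9 TPM in Tumor and at 51.1, 59.1 and 56.3 TPM in WT, so it was not lost in the libraries labelled as knockout. Between the groups, 0 of 14144 tested genes passed an adjusted p of 0.05 in limma, a linear model over all genes, and 771 had an unadjusted p below 0.05. Of these, 530 were higher (3.75% of genes tested) and 241 lower (1.7%) in Tumor, which became 123 and 539 with median-ratio scaling factors. The median log2 difference over all tested genes was 0.23, or 0.03 with those factors.

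Muscle transcripts were abundant in 4 libraries and scarce in WT replicates 1 and 3. Summed over the 41 genes, the level was 3299, 1153 and 4087 TPM in Tumor replicates 1, 2 and 3, and 185, 5023 and 217 TPM in WT replicates 1, 2 and 3. These sums were 0.330%, 0.115% and 0.409% of all TPM in Tumor and 0.0185%, 0.502% and 0.0217% in WT. The highest and the lowest library thus both belonged to WT, and the ranges of the groups overlapped. In bulk tissue, fewer muscle cells and less RNA per muscle cell cannot be told apart.

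**Figure D1:**
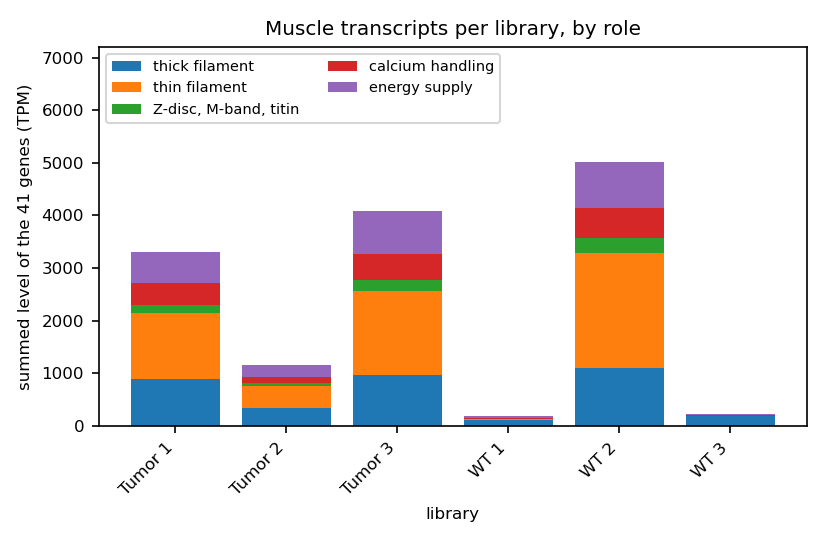
Summed level of the 41 muscle genes in TPM for each library, Tumor libraries left and WT libraries right, with bars divided by the role of the genes. WT replicate 2 reached 5023 TPM, above every Tumor library, while WT replicates 1 and 3 stayed at 185 and 217 TPM.

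The difference between the groups did not exceed the spread within them. The sums averaged 2846 ± 1519 TPM in Tumor and 1808 ± 2784 TPM in WT (SD, n = 3 each), a ratio of 1.57. On the log2 scale the Tumor mean was 2.09 higher, with a two-sided exact permutation p of 0.4, where the smallest p that 3 against 3 libraries allow is 0.1. That log2 difference was 3.64 without WT replicate 2, 1.26 without WT replicate 1 and 1.37 without WT replicate 3. It was 3.45 when Myl1 and Eno3, which were present in every library, were left out of the sum, a choice made after seeing the data.

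Gene by gene, 35 of the 41 reached 1 TPM in 3 or more libraries and were tested, and 0 of these did so through the Tumor libraries alone. The other 6 were Myh2, Myh7, Myl2, Myl3, Tnni1 and Sln. With limma, 0 of the 35 passed an adjusted p of 0.05, against 0% of all genes tested, and 0 of the 35 had an unadjusted p below 0.05, against 5.45% of all genes (3.75% higher and 1.7% lower). The difference was positive for 34 of the 35, against 76.8% of all genes, and above 1 on the log2 scale for 24, against 2.22%. With median-ratio factors 34 stayed positive. These are differences of mean log2(TPM + 1), and Tcap, Mb and Myom1, although positive, had a lower mean TPM in Tumor. Their means were 20.1, 14.8 and 8.21 TPM in Tumor and 32.8, 24.0 and 8.54 TPM in WT. The median log2 difference was 1.44 over the 35 genes and 0.23 over all genes tested. It was 2.76 without WT replicate 2, the WT library with the most muscle RNA. In that fit 28 of the 35 had an unadjusted p below 0.05, against 3.14% of all genes, and 0 passed after adjustment. Only WT libraries with little muscle RNA remained in it and these genes varied together, so the 28 are not read as a result. Leaving out any other single library gave 0 of the 35. The median was 0.82 without WT replicate 3. Of all 41, only Myl2, chosen after its values were seen, had every Tumor library above every WT library, against 11.8% of all genes tested, and it was too low to be tested itself. The reverse held for 0 of the 41, against 3.24% of all genes tested.

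**Figure D2:**
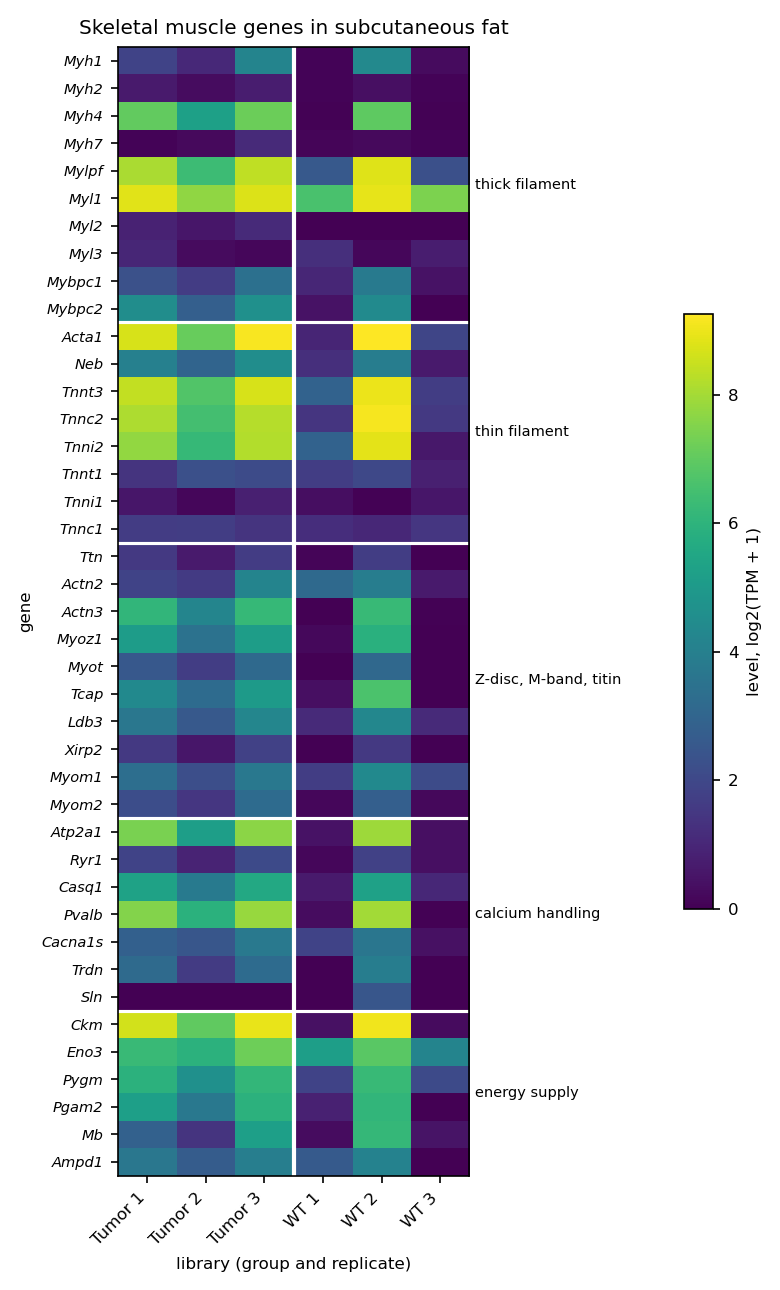
Level of each of the 41 genes as log2(TPM + 1), genes in rows grouped by role and libraries in columns, Tumor left of WT. The column of WT replicate 2 resembles the Tumor columns. The columns of WT replicates 1 and 3 are dark except for genes such as Myl1 and Eno3. The rows of the fast gene Myh2 and of the slow genes Myh7, Myl2, Myl3 and Tnni1 are dark in all 6 columns, at or below 1.39 TPM.

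The myosin heavy chains are the motors of the thick filament, and the adult fibre type is named after the heavy chain it uses. Myh4 (chromosome 11, 67238029 to 67260446, GRCm38, GENCODE M21) encodes the heavy chain of the fastest type, IIB. It stood at 129, 37.6 and 145 TPM in Tumor and at 0.0331, 122 and 0.0334 TPM in WT. The heavy chain of type IIX, Myh1, stood at 2.60, 1.10 and 17.1 TPM in Tumor and at 0.0577, 19.5 and 0.212 TPM in WT. Myh1 was thus well above 10 TPM in Tumor replicate 3 and WT replicate 2 alone. Myh2, the type IIA heavy chain, reached at most 0.686 TPM, and Myh7, the slow type I heavy chain, at most 1.17 TPM, both in Tumor replicate 3. Of the summed TPM of these 4 heavy chains, Myh4 took 97.5%, 96.1% and 88.4% in Tumor replicates 1, 2 and 3 and 86.0% in WT replicate 2, while Myh1 took 1.96%, 2.81% and 10.4% in the same Tumor libraries and 13.7% in WT replicate 2. In WT replicates 1 and 3 the 4 heavy chains summed to 0.236 and 0.369 TPM, too little for shares to be read.

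The log2 difference between Tumor and WT was 4.15 for Myh4 (SE 1.94, limma adjusted p = 0.737) and 0.79 for Myh1 (SE 1.38, limma adjusted p = 0.859). The Myh4 difference was 6.45 without WT replicate 2 and 3.00 without either WT replicate 1 or WT replicate 3. The Myh1 difference was 2.19 without WT replicate 2 and turned to -0.11 without Tumor replicate 3. Myh1, Myh2 and Myh4 are close paralogs whose reads can be shared, and how shared reads were divided is not given in the sources used here.

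Genes of mature muscle are known to be switched on through DNA motifs read by myogenic factors (the E-box, CANNTG), by MEF2 factors, by SRF (the CArG box) and by TEAD factors (MCAT, CATTCC or its complement GGAATG). The sequences below are the 250 bases before the RefSeq start of Acta1 and Ckm, which are among the most abundant genes of the set, and of the 3 neighbouring fast myosin genes, whose levels differed widely. They are from RefSeq on GRCm38.p6, 5′ to 3′ along the gene, and capitals mark matches to any of these 4 motifs on either strand. They lie at chr8:123894776-123895025 (minus strand) for Acta1, chr7:19410844-19411093 (plus) for Ckm, chr11:67237562-67237811 (plus) for Myh4, chr11:67199852-67200101 (plus) for Myh1 and chr11:67170777-67171026 (plus) for Myh2.
Acta1: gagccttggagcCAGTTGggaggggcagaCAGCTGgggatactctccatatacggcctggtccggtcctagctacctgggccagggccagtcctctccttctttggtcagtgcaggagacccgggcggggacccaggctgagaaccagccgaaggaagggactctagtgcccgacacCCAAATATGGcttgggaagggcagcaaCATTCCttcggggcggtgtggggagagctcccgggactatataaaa
Ckm: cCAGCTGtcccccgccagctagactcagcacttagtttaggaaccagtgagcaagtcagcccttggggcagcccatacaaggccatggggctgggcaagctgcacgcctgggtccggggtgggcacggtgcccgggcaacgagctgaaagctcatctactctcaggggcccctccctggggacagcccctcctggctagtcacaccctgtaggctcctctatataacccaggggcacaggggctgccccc
Myh4: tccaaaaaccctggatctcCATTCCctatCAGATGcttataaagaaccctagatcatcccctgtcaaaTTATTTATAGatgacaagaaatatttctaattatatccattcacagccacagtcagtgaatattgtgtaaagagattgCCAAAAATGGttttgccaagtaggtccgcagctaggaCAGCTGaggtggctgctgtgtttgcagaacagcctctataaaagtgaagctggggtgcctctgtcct
Myh1: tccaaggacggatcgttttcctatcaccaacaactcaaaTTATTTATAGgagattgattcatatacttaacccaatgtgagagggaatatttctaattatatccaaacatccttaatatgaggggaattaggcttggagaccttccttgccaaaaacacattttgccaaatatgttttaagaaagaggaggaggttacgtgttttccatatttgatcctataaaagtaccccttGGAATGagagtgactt
Myh2: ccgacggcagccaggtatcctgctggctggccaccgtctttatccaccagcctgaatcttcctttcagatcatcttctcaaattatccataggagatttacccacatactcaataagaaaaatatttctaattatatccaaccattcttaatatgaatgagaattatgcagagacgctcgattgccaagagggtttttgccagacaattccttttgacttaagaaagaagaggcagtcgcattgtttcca
The Acta1 window held 2 E-boxes, 1 CArG box and 1 MCAT motif, and the Ckm window 1 E-box. The Myh4 window held 2 E-boxes and 1 each of the MEF2, CArG and MCAT motifs. The Myh1 window held 1 MEF2 and 1 MCAT motif, and the Myh2 window held none of these letters. The Myh4 window was identical to that of Myh1 at 54.7% of aligned positions and to that of Myh2 at 47.1%.

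Promoter sequences were at hand for 30 of the 41 genes, in 37 windows, and they are described against all 32851 windows of the same length. Windows and not genes are counted, and genes such as Ldb3 and Mb enter with several windows. Each Ldb3 window held a CArG box, so that gene counts more than once below. A CArG box was found in 6 of the 37 (16.2%, against 1.47% of all windows) and a MEF2 motif in 6 (16.2%, against 2.92%). An MCAT motif was found in 10 (27.0%, against 12.6%) and an E-box in 31 (83.8%, against 66.2%). The letters TATAA, a core promoter element, were found on either strand in 12 (32.4%, against 22.8%). A match describes the letters in the window and not binding. Neither MEF2 nor SRF transcripts were restricted to the libraries with muscle transcripts, since Mef2d stood at 32.6, 52.7 and 60.1 TPM in Tumor and 51.3, 38.1 and 32.5 TPM in WT, and Srf at 29.1, 40.2 and 58.8 TPM in Tumor and 43.5, 37.0 and 25.4 TPM in WT.

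Of the light chains and myosin-binding proteins of the thick filament, Mylpf, Mybpc1 and Mybpc2 were low in WT replicates 1 and 3, whereas Myl1, Myl2 and Myl3 each had another pattern. Mylpf, the fast regulatory light chain, stood at 269, 79.6 and 329 TPM in Tumor and at 4.97, 448 and 3.75 TPM in WT. Its slow partner Myl2 stood at 0.862, 0.492 and 1.17 TPM in Tumor and was listed at 0 in all 3 WT libraries. Myl1, the fast essential light chain, departed from the rest, with 456, 211 and 432 TPM in Tumor and 95.1, 480.0 and 172 TPM in WT. WT replicates 1 and 3, where Myh4 was near 0, thus still held Myl1 at 19.8% and 35.9% of its level in WT replicate 2, and Myl1 made up 51.5% and 79.5% of all TPM of the 41 genes there. Myl3, the slow essential light chain, stood at 1.01, 0.202 and 0.115 TPM in Tumor and at 1.39, 0.107 and 0.652 TPM in WT, lowest in WT replicate 2 and Tumor replicate 3, where most genes of the set were highest. Myl3 overlaps Pth1r on the opposite strand, which stood at 7.64 to 36.7 TPM. The sample titles carry the words forward strand, but how counting used strand is not given in the sources used here. A part of Pth1r reads in the Myl3 values was not tested. Mybpc2, the fast form of myosin-binding protein C, averaged 17.5 ± 10.01 TPM in Tumor and 6.97 ± 11.8 TPM in WT (SD, n = 3 each). Mybpc1, the form named for slow fibres and found in fast fibres too, averaged 5.27 ± 3.99 TPM in Tumor and 4.64 ± 6.88 TPM in WT.

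Acta1, the actin of skeletal muscle thin filaments (chromosome 8, 123891769 to 123894751), stood at 410.2, 135 and 575 TPM in Tumor and at 0.953, 612 and 2.82 TPM in WT. Its level in WT replicates 1 and 3 was 0.156% and 0.462% of that in WT replicate 2. With limma its log2 difference was 4.26 (SE 2.20, adjusted p = 0.737), and it was 6.86 without WT replicate 2 and 2.72 without WT replicate 1. Neb encodes nebulin, the ruler that runs along the thin filament, and it averaged 14.7 ± 7.66 TPM in Tumor and 5.42 ± 7.70 TPM in WT (SD, n = 3 each).

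Troponin has a tropomyosin-binding subunit (T), an inhibitory subunit (I) and a calcium-binding subunit (C), each with a fast and a slow gene. The fast Tnnt3 stood at 343, 106 and 415 TPM in Tumor and at 6.53, 512 and 2.22 TPM in WT, against 1.60, 3.85 and 3.34 TPM in Tumor and 2.20, 2.98 and 0.772 TPM in WT for the slow Tnnt1. The fast Tnni2 stood at 213, 72.1 and 289 TPM in Tumor and at 6.55, 473 and 0.528 TPM in WT. The slow Tnni1, its partner, stayed at or below 0.742 TPM in every library. The fast Tnnc2 stood at 277, 88.3 and 299 TPM in Tumor and at 1.69, 559 and 1.93 TPM in WT. Tnnc1, the slow and cardiac troponin C, did not follow the others, with 2.11, 2.24 and 1.60 TPM in Tumor and 1.32, 1.04 and 1.75 TPM in WT. Its lowest value was in WT replicate 2, which had the most Tnnc2. Tnnc1 overlaps Nisch on the opposite strand, which stood at 105 to 239 TPM, so the low Tnnc1 values are uncertain. Tnnc2, Acta1 and Atp2a1 also overlap a gene on the opposite strand. These were Ube2c at 5.48 to 22.0 TPM, Gm20388 at 17.5 to 32.1 TPM and Rabep2 at 18.5 to 53.3 TPM.

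**Figure D3:**
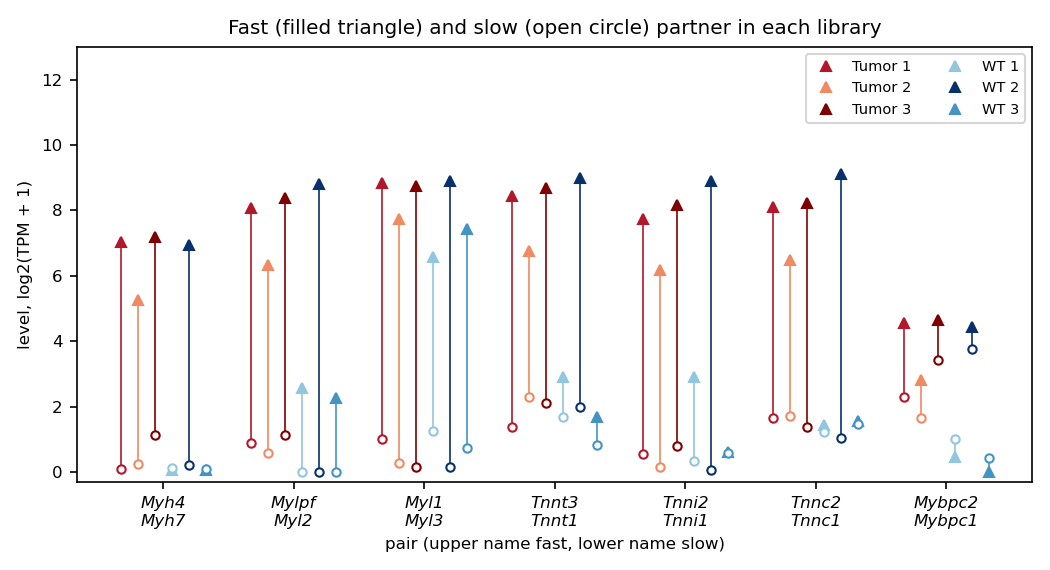
Level as log2(TPM + 1) of the fast gene (filled triangle) and the slow gene (open circle) of 7 protein pairs in each library, Tumor libraries in reds and WT libraries in blues. In the 3 Tumor libraries and WT replicate 2 the fast gene lies above its slow partner in each of the 7 pairs, by least for Mybpc2 and Mybpc1. In WT replicates 1 and 3 the longest lines are those of Myl1 with Myl3.

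Fast genes outweighed slow genes wherever muscle transcripts were plentiful. Summed over 14 genes typical of fast fibres, the level was 2203, 738 and 2529 TPM in Tumor and 117, 3293 and 183 TPM in WT. Summed over 7 slow genes it was 10.01, 9.23 and 17.9 TPM in Tumor and 6.25, 16.9 and 4.07 TPM in WT. The slow genes therefore made up 0.452%, 1.23% and 0.703% of the fast and slow sum in Tumor, and 5.08%, 0.511% and 2.18% in WT. Mybpc1 alone made up 39.0%, 23.2% and 54.6% of the slow sum in Tumor and 15.9%, 74.3% and 8.65% in WT. Without it, a choice made after seeing the data, the slow sum was 6.11, 7.08 and 8.13 TPM in Tumor and 5.26, 4.34 and 3.72 TPM in WT, and the slow share 0.276%, 0.950% and 0.321% in Tumor and 4.31%, 0.132% and 2.00% in WT. The slow sum of WT replicate 2 was then between those of WT replicates 1 and 3. The higher slow shares of WT replicates 1 and 3 came with fast sums of which Myl1 alone was the largest part. The log2 ratio of fast to slow averaged 6.96 ± 0.74 in Tumor and 5.57 ± 1.78 in WT (SD, n = 3 each), and the difference of 1.39 did not exceed the spread (two-sided exact permutation p = 0.3). This difference was 0.61 without WT replicate 1 and 2.36 without WT replicate 2. It was 2.56 as the mean over the 7 pairs, and 3.24 with Myl1 left out of the fast sum, a choice made after seeing the data. With Mybpc1 left out of the slow sum it was 1.37 (exact permutation p = 0.4).

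The Z-disc anchors the thin filaments at the ends of the sarcomere, the M-band links the thick filaments in its middle, and titin spans from one to the other. Actn3, the alpha-actinin of fast glycolytic fibres, stood at 67.3, 17.5 and 72.1 TPM in Tumor and at 0.0166, 75.029 and 0.0472 TPM in WT. Actn2, the alpha-actinin of all fibres, stood at 2.63, 1.98 and 16.9 TPM in Tumor and at 8.02, 14.1 and 0.593 TPM in WT. WT replicate 1, with almost no Actn3, thus held more Actn2 than Tumor replicates 1 and 2. In limma its log2 difference, -0.05 (SE 1.06, adjusted p = 0.988), was the only negative value among the 35 tested genes and changed sign under several alternatives. Ttn, which encodes the very long protein titin, had only 1.88, 0.576 and 2.16 TPM in Tumor and 0.105, 2.20 and 0.000941 TPM in WT.

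Tcap, which caps titin at the Z-disc, stood at 19.8, 8.51 and 32.0 TPM in Tumor and at 0.289, 98.0 and 0 TPM in WT, and its highest Tumor library reached 0.327 of the level in WT replicate 2. The Z-disc proteins Myoz1 and Ldb3 averaged 26.4 ± 13.9 and 11.5 ± 6.47 TPM in Tumor and 19.2 ± 33.2 and 6.87 ± 9.91 TPM in WT (SD, n = 3 each). The Z-disc gene Myot and the actin-binding gene Xirp2 were listed at 0 in WT replicates 1 and 3. Xirp2 was the lowest gene of this role, at 1.88, 0.466 and 2.46 TPM in Tumor and 1.89 TPM in WT replicate 2. The M-band genes Myom1 and Myom2 averaged 8.21 ± 4.18 and 4.57 ± 3.44 TPM in Tumor and 8.54 ± 9.98 and 2.10 ± 3.40 TPM in WT. Myom1 kept 2.23 and 3.35 TPM in WT replicates 1 and 3, and it overlaps the widely expressed Myl12a on the opposite strand.

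Calcium handling genes serve the release and uptake that drive each contraction. Pvalb encodes parvalbumin, a calcium buffer of fast fibres in the mouse, and stood at 183, 59.5 and 226 TPM in Tumor and at 0.230, 248 and 0.0489 TPM in WT. Atp2a1, the fast calcium pump SERCA1, stood at 167, 35.9 and 198 TPM in Tumor and at 0.352, 239 and 0.299 TPM in WT. Both genes were plentiful in the same 4 libraries. Casq1, which stores calcium in the sarcoplasmic reticulum, averaged 33.3 ± 18.3 TPM in Tumor and 13.4 ± 21.7 TPM in WT (SD, n = 3 each). The release channel Ryr1 and its voltage sensor Cacna1s averaged 2.23 ± 1.19 and 7.70 ± 4.20 TPM in Tumor and 0.964 ± 1.30 and 4.76 ± 5.79 TPM in WT. Trdn, which encodes triadin, a partner of the release channel, was listed at 0 in WT replicates 1 and 3. Sln encodes sarcolipin, a small inhibitor of the calcium pump, and was listed at 0 in 5 libraries and at 4.63 TPM in WT replicate 2.

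Among the genes of energy supply, Ckm, the muscle creatine kinase that regenerates ATP, was the most abundant, at 396, 128 and 489.8 TPM in Tumor and 0.335, 538 and 0.209 TPM in WT. Its log2 difference was 4.94 (SE 2.42, limma adjusted p = 0.737), and it was 7.85 without WT replicate 2. Pygm, the muscle glycogen phosphorylase, and Pgam2, a muscle form of phosphoglycerate mutase, averaged 51.7 ± 24.4 and 36.5 ± 24.5 TPM in Tumor and 26.8 ± 41.3 and 22.8 ± 38.8 TPM in WT (SD, n = 3 each). Eno3, the muscle enolase, was present in every library, with 75.6, 60.5 and 148 TPM in Tumor and 35.4, 118 and 17.1 TPM in WT. Ampd1, the muscle AMP deaminase, stood at 11.9, 5.47 and 14.6 TPM in Tumor and at 5.21, 16.0 and 0 TPM in WT. WT replicate 1 held 32.6% of the Ampd1 level of WT replicate 2 and 29.99% of its Eno3 level. Mb encodes myoglobin, the oxygen store of oxidative fibres, and stood at 6.36, 1.62 and 36.3 TPM in Tumor and at 0.248, 71.4 and 0.401 TPM in WT. Mb overlaps Apol6 on the opposite strand, which stood at 61.4 to 351 TPM and was lowest in Tumor replicate 3 and highest in WT replicate 3.

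Where muscle transcripts were plentiful, Pvalb, Tnnt3 and Acta1, a selection, kept similar proportions to Ckm, while other genes, abundant ones among them, varied between libraries. Tnnc2 in Tumor replicate 3 was 0.534 of its level in WT replicate 2, against 0.910 for Ckm. Myl1 in Tumor replicate 2 was 0.439 of its level in WT replicate 2, against 0.238 for Ckm. Pvalb stood at 46.2%, 46.4% and 46.0% of Ckm in Tumor replicates 1, 2 and 3 and at 46.2% in WT replicate 2. Tnnt3 stood at 86.6%, 83.0% and 84.7% of Ckm in the same Tumor libraries and at 95.2% in WT replicate 2, and Acta1 at 104%, 106% and 117% in Tumor and 114% in WT replicate 2. Of 32 genes with at least 1 TPM in these 4 libraries, 24 had a ratio of Tumor replicate 3 to WT replicate 2 within 1.5 times of the median ratio of 0.910 and 1 lay beyond 2 times. For Tumor replicate 1 over WT replicate 2 the median was 0.641, with 22 genes within 1.5 times of it and 6 beyond 2 times. For Tumor replicate 2 over WT replicate 2 it was 0.236, with 19 genes within 1.5 times and 7 beyond 2 times. These are ratios of single libraries, described without a test.

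The genes described next departed from these medians and were chosen after their values were seen. Mb stood at 1.61%, 1.27% and 7.41% of Ckm in Tumor replicates 1, 2 and 3 and at 13.3% in WT replicate 2. Myh1 stood at 0.656%, 0.856% and 3.50% of Ckm in Tumor and at 3.62% in WT replicate 2. Tumor replicate 3 and WT replicate 2 were thus alike in Myh1 per Ckm and both above Tumor replicates 1 and 2, a difference that crossed the groups. Actn2 followed the same division, at 0.664%, 1.55% and 3.45% of Ckm in Tumor and 2.62% in WT replicate 2. However, WT replicate 1 held Actn2 at 8.02 TPM with Ckm at 0.335 TPM, so Actn2 was not tied to Ckm in every library. Tcap was 5.01%, 6.64% and 6.54% of Ckm in Tumor and 18.2% in WT replicate 2. Tnnt1 and Tnnc1 departed in the other sense, since in Tumor replicate 2, which had the least muscle RNA of the 4, they were 1.29 and 2.16 times their level in WT replicate 2.

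**Figure D4:**
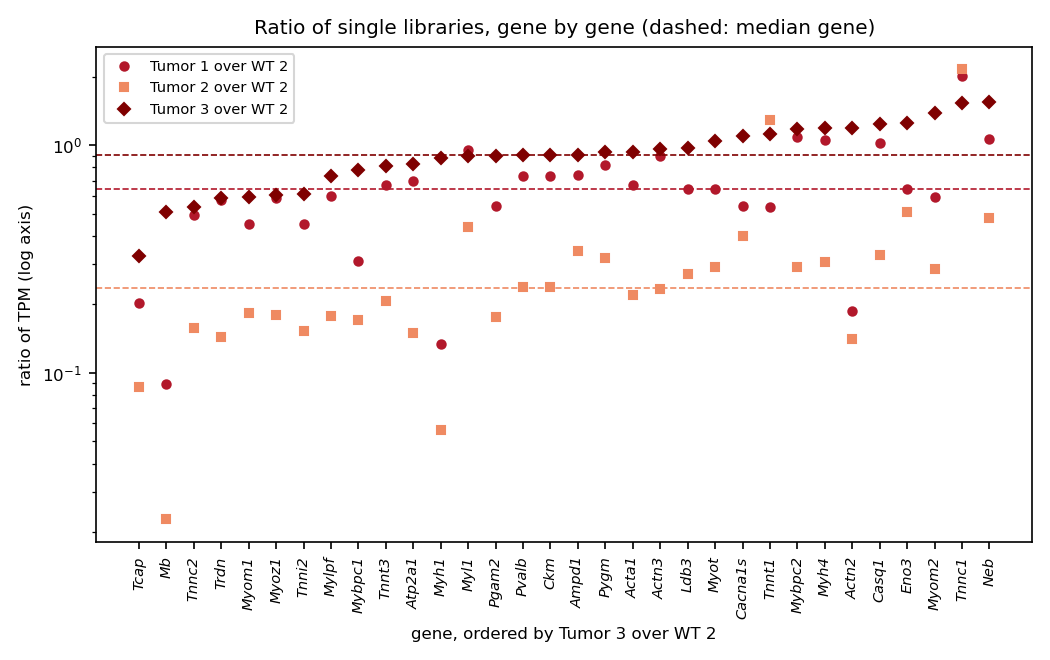
Ratio of TPM in each Tumor library to WT replicate 2 for the 32 genes with at least 1 TPM in all 4 libraries, on a log axis, with the median gene of each Tumor library as a dashed line (0.641, 0.236 and 0.910 for Tumor replicates 1, 2 and 3). Of the 32 genes, 22, 19 and 24 lie within 1.5 times of the line in Tumor replicates 1, 2 and 3, while Mb and Myh1 fall far below it in Tumor replicates 1 and 2, Actn2 does in Tumor replicate 1, and Tnnc1 lies above it in each Tumor library.

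Other genes of muscle, 108 in all and not members of the set, were read from lists of further fast, slow, sarcomere, calcium, energy, regulatory, junction and atrophy genes. Of these, 74 were tested with limma and 0 passed, with 1 higher and 5 lower at an unadjusted p below 0.05, against 3.75% higher and 1.7% lower of all genes. Since that balance over all genes turned to 123 higher and 539 lower with median-ratio factors, no direction is read from these 6 genes. The median log2 difference was 0.38 against 0.23 over all genes. The median was 0.70 over 14 further calcium handling genes and 0.54 over 19 further sarcomere genes, and 0 of either list had an unadjusted p below 0.05. It was 0.36 over 9 further fast genes and 0.19 over 4 slow genes. Tpm1 and Tpm2, tropomyosins of the thin filament that other cells make too, stood at 307, 141 and 357 TPM and 100.1, 49.7 and 144 TPM in Tumor, and at 65.9, 293 and 66.2 TPM and 16.7, 215 and 23.0 TPM in WT. Both were highest in the libraries rich in Acta1. The slow fibre genes Tpm3 and Atp2a2, both widely expressed, did not follow this order, with 224, 279 and 398 TPM and 50.9, 43.8 and 36.7 TPM in Tumor and 276, 221 and 151 TPM and 40.2, 30.2 and 54.6 TPM in WT. Tmem38a, a channel of the sarcoplasmic reticulum, stood at 12.1, 5.97 and 12.8 TPM in Tumor and at 2.84, 13.3 and 3.92 TPM in WT. The 14 further energy genes tested had a median of -0.55. Their most abundant gene, the glycolytic enzyme Aldoa, stood at 1189, 972.5 and 938 TPM in Tumor and at 1689.9, 1875 and 1733 TPM in WT, and was higher in WT replicates 1 and 3, which had little muscle RNA, than in any Tumor library. Gpd1, listed with fast genes and also abundant in fat, stood at 514, 422 and 177 TPM in Tumor and at 924, 914 and 1178 TPM in WT.

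Several genes outside the set were nearly particular to WT replicate 2 among these 6 libraries and were chosen after their values were seen. Csrp3, a Z-disc protein of slow and cardiac muscle, stood at 0.217, 0.310 and 0.794 TPM in Tumor and at 0, 27.4 and 0 TPM in WT. Fabp3, a fatty acid carrier of oxidative muscle, heart and brown fat, stood at 4.07, 2.49 and 8.59 TPM in Tumor and at 9.51, 117 and 1.46 TPM in WT. The same library had the most Mb, Sln and Tcap. It also had the most Ucp1, the uncoupling protein of brown fat, which stood at 0.383, 2.21 and 2.27 TPM in Tumor and at 71.1, 507 and 15.7 TPM in WT, and the 8 brown adipocyte markers summed to 280.35, 402 and 252 TPM in Tumor and 873, 2439 and 872 TPM in WT. The part of brown fat in these values was not tested.

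Markers of other tissues were compared with the muscle genes library by library. The 9 B cell and lymph node markers summed to 35.0, 2773 and 4879.7 TPM in Tumor and 2471.5, 2656 and 12.5 TPM in WT. Muscle and lymphoid RNA therefore did not go together, since Tumor replicate 1 had muscle RNA with almost no lymphoid RNA and WT replicate 1 the reverse. Adipoq, the fat cell hormone adiponectin, stood at 3455, 2023 and 720.5 TPM in Tumor and at 1413, 1711 and 3403 TPM in WT, and high values occurred both with muscle RNA, in Tumor replicate 1, and without it, in WT replicate 3. Of 10 cardiac markers, 6 stayed below 1 TPM in every library, among them the cardiac heavy chain Myh6, which was listed at 0 in 5 libraries. The other 4 were detected, with the troponin Tnni3 at 7.42, 18.6 and 19.1 TPM in Tumor and at 15.7, 14.6 and 6.51 TPM in WT, and the light chain Myl4 at 8.36, 15.1 and 8.34 TPM in Tumor and at 13.7, 35.3 and 10.1 TPM in WT. Tnnt2 reached 3.85 TPM and Actc1 2.01 TPM, both in Tumor replicate 3. The smooth muscle actin Acta2 stood at 61.6, 62.1 and 46.7 TPM in Tumor and at 31.5, 58.8 and 42.5 TPM in WT, a far narrower range than that of Acta1. Of 10 epidermal markers, 7 stayed below 1 TPM in every library.

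**Figure D5:**
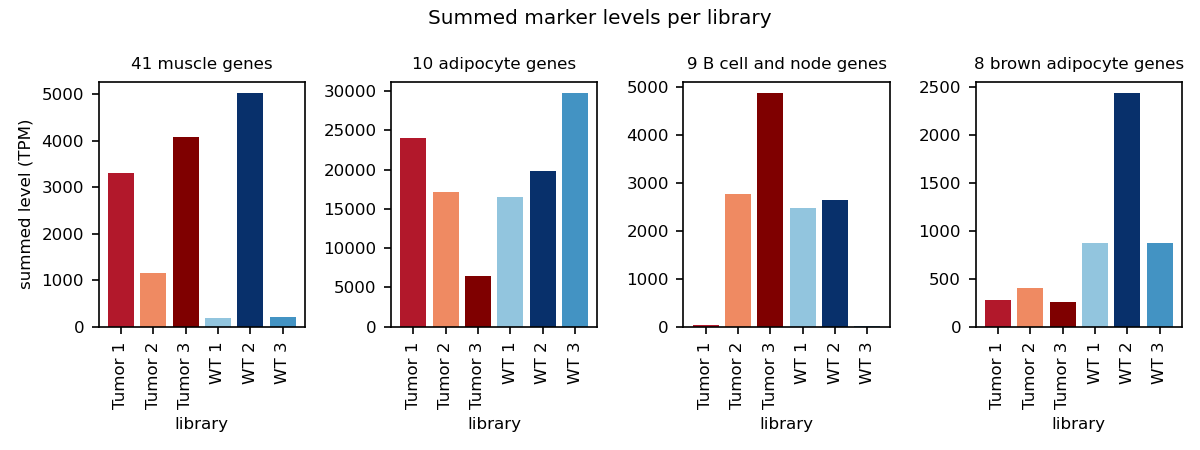
Summed TPM per library of the 41 muscle genes, of 10 adipocyte, 9 B cell and lymph node and 8 brown adipocyte genes, Tumor libraries left in reds and WT libraries right in blues, each panel with its own scale from 0. Muscle sums of 3299 and 5023 TPM in Tumor replicate 1 and WT replicate 2 stand beside lymphoid sums of 35.0 and 2656 TPM.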

How the data were processed

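Poly-A RNA of subcutaneous white adipose tissue, with an integrity number above 7 per the labels' protocols, was sequenced in 6 libraries. The authors deposited 1 table, named for raw counts, but its values are TPM, since every library totals 1000000 with fractional values. The submitters' processing notes name GRCm38.p6 and, without its role, DESeq2. Which aligner and quantifier were used is not stated there or in the labels. The sample titles carry the words forward strand, without saying how counting used strand. Read depth is unknown, so no counting intervals are given.

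Groups were taken from the sample titles. Genes reaching 1 TPM in 3 or more libraries were fitted with limma 3.58.1 (R 4.3.3, trend and robust moderation, group alone) on log2(TPM + 1), which understates changes of low genes, with Benjamini-Hochberg adjustment over all 14144 genes and a threshold of 0.05. The labels give no batch, and p-values measure the spread between these libraries. Summed levels and fast to slow ratios, with a pseudocount of 1 TPM, were compared by exact permutation (scipy 1.17.1). The fit was tested on simulated data with independent genes and 1 common spread. In these libraries muscle genes varied together and more widely, so that test does not cover them. Values per library are given for Acta1, Ckm, Ttn, the myosin heavy chains, the fast and slow pairs and the extremes of each role, and for the most abundant genes of other lists. Genes named beyond these were chosen after their values were seen. The genes and lists were chosen with earlier results of these data known. Coordinates are from GENCODE M21 and promoters from RefSeq, both on GRCm38, and the 50 bases after the start were left out. Alternatives tried were other pseudocounts, filters, scaling factors, moderation, a replicate block and leaving out each library. The correlations of deviations between same-numbered libraries were -0.758, 0.205 and -0.843, and the main fit did not pair the samples by number. With 3 libraries per group these correlations cannot exclude pairing. Figures were drawn with matplotlib 3.10.9.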

Additional observations from a re-analysis of the deposited data

How the results depend on the processing

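With limma, 0 genes and 0 of the muscle genes passed under each of the 15 alternatives to the fit. The median log2 difference of the muscle genes was 1.44, and leaving out single libraries gave 0.82 to 2.76. It was 2.47 with a pseudocount of 0.1, 1.98 with 0.5, 1.23 over all 41 without a filter, 2.47 over the 26 with at least 5 TPM in 3 libraries, 1.28 with median-ratio and 1.27 with upper-quartile factors. With replicate number as a block the median stayed at 1.44 and the number of genes with an unadjusted p below 0.05 was 183 in place of 771. The summed level differed by 2.09 on the log2 scale, by 1.86 to 1.96 with median-ratio factors or without Acta1, by 1.71 as a mean over genes, and by 1.26 to 3.64 with single libraries left out. The exact permutation p ran from 0.2 to 0.8. Its 0.2 came without WT replicate 2 and is the smallest p possible with 1 library left out. For the block by replicate number p was 0.5, where the smallest possible is 0.25. The fast to slow log2 ratio differed by 1.39, by 1.32 with a pseudocount of 0.1 and by 0.61 to 2.36 with single libraries left out, with p of 0.5 under the block. Of the 35 tested genes, 31 kept the sign of their difference throughout. Actn2 turned to 0.091 with a pseudocount of 0.1, and with single libraries left out it ran from -1.01 (WT replicate 3) to 0.61 (WT replicate 2). Under the same omissions Mb ran from -0.19 (Tumor replicate 3) to 2.76, Myh1 from -0.11 (Tumor replicate 3) to 2.19 and Myom1 from -0.18 (WT replicate 1) to 1.17, each highest without WT replicate 2. The causes were not tested. The sum without Myl1 and Eno3 (3.45), the fast sum without Myl1 (3.24) and the slow sum without Mybpc1 (1.37) were chosen after seeing the data. Values near or below 1 TPM, as for the slow genes, rest on few fragments.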

Other observations

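Genes of muscle formation and of the nerve contact were low even where mature muscle transcripts were plentiful. Of 15 myogenic regulators, 9 stayed below 1 TPM in every library. Myod1, a master regulator of muscle fate, reached at most 0.155 TPM and Pax7, the marker of muscle stem cells, at most 0.0462 TPM, both in WT replicate 2. Myf6, the regulator that persists in mature fibres, stood at 0.654, 0.0801 and 0.471 TPM in Tumor and at 0, 2.31 and 0 TPM in WT. The embryonic heavy chain Myh3 and the neonatal Myh8 stayed at or below 0.0323 and 0.140 TPM. Of the acetylcholine receptor genes of the junction, Chrnd was listed at 0 in all 6 libraries and Chrng in 5, whereas Chrnb1 stood at 5.605 to 8.98 TPM in all of them. Colq, which anchors acetylcholinesterase at the junction, stood at 0.466, 12.7 and 20.0 TPM in Tumor and at 11.6, 8.90 and 0.0720 TPM in WT, which followed the lymphoid markers and not the muscle genes.

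Genes tied to muscle wasting were read in the same libraries. Trim63 (MuRF1), a muscle ubiquitin ligase, stood at 2.06, 0.709 and 4.10 TPM in Tumor and at 0.428, 2.49 and 0.234 TPM in WT. Fbxo32 (atrogin-1) stood at 5.99, 3.06 and 4.35 TPM in Tumor and at 3.25, 4.27 and 2.80 TPM in WT, and neither passed the test (limma adjusted p = 0.7502 and 0.792). Mstn, which encodes myostatin, a brake on muscle growth, stood at 0.423, 0.0863 and 0.554 TPM in Tumor and at 0.0393, 5.43 and 0.0335 TPM in WT. Of 7 atrophy and growth genes tested 0 passed, and 1, Foxo3, was higher at an unadjusted p of 0.0265 (limma adjusted p = 0.737), against 3.75% of all genes tested. Foxo3 stood at 10.9, 11.7 and 13.8 TPM in Tumor and at 9.04, 7.17 and 7.34 TPM in WT, with no overlap between the groups, as for 11.8% of all genes tested. The genes named here were chosen after their values were seen.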
